A study of Mus musculus with 24 samples.

Results

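Oxidative phosphorylation is carried out in the inner mitochondrial membrane by protein complexes built from many subunits. Complex I (NADH dehydrogenase) and complex II (succinate dehydrogenase) pass electrons to ubiquinone, complex III (cytochrome bc1) passes them on to cytochrome c, and complex IV (cytochrome c oxidase) passes them to oxygen. Complexes I, III and IV pump protons, and complex V (ATP synthase) makes ATP from the resulting gradient. The mitochondrial genome encodes a few core subunits, while all subunits of complex II and most of the others are encoded in the nucleus. In macrophages and microglia, inflammatory stimulation is known to shift energy metabolism towards glycolysis.

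The genes described are the nuclear-encoded oxidative phosphorylation (OXPHOS) genes: rows of the count table typed as protein coding whose symbols begin with Nduf followed by a, b, c, s or v, with Uqcr, with Cox4 to Cox8 or with Atp5, or are Sdha, Sdhb, Sdhc or Sdhd. The rule found 95 of 55434 genes and used no measured value. They comprise 37 genes of complex I, 8 complex I assembly factors (Ndufaf1 to Ndufaf8, which are not subunits), 4 of complex II, 8 of complex III, 20 of complex IV and 18 of complex V. Ndufa4 and its paralog Ndufa4l2 carry complex I names but were counted with complex IV, where the protein is now placed. Atp5o has 2 identifiers, 1 of them with 0 reads, and Cox8c, a testis isoform, also had 0 reads. None of the 37 mitochondrial genome genes was in the table, so the mitochondrially encoded subunits were not analysed here. Exons of 35 OXPHOS genes overlap those of another gene, 31 of them on the opposite strand, and the strand setting of the counting is not given in the sources used here.

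RNA of CD11b-selected brain cells (CD11b is a surface protein of microglia and other myeloid cells) was sequenced in 24 libraries, 3 in each of 8 groups. Microglia of 16-week-old mice came from MRL/lpr, a strain in which the lpr mutation of Fas brings on a lupus-like disease, and from MRL/MpJ, its parent strain. Microglia of neonatal MRL/lpr mice were kept in culture for 48 h before a 6 h period without a cytokine or with 1 of 5 stimuli. These were IFNg and IFNa (type II and type I interferon), the cytokines IL-6 and TNFa, and the mixture of all 4. All 6 cultured groups thus carry the lpr mutation, no cultured MRL/MpJ cells were included, and cytokine doses are not in the labels. The labels do not say whether libraries of a group came from separate animals, so p-values measure the spread between these samples, which may be technical.

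Libraries held between 10.08 and 19.32 M (mega) counts in total. OXPHOS genes took 0.37% to 0.465% of the counts in the adult MRL/lpr libraries, 0.447% to 0.547% in the adult MRL/MpJ libraries and 0.691% to 1.17% in the cultured libraries. Markers of microglia were present in all groups, with a summed level of 4875 to 7651 CPM in the cultured libraries, far below the adult ones on the scaling of each set. In adults, 8 of 11 were lower in MRL/lpr, with a summed level of 39070 to 43480 CPM (counts per M counts, scaled by TMM, the trimmed mean of M values) against 69390 to 73390 CPM in MRL/MpJ. Of 5 natural killer cell markers tested, 4 were higher in adult MRL/lpr (summed level 42.87 to 54.02 against 5.944 to 19.32 CPM), as were 3 of 7 T cell markers (9.317 to 13.34 against 5.309 to 10.21 CPM), and 6 of 8 border macrophage markers were lower (90.5 to 168.3 against 297.3 to 363.5 CPM). Of 5 RNAs known to stay in the nucleus, 4 were higher, with a summed level of 1562 to 2333 CPM in MRL/lpr against 144.1 to 260.4 CPM in MRL/MpJ. Of 17 immediate early and heat shock genes, 14 were higher and 1 lower in MRL/lpr (4473 to 4871 against 2174 to 2342 CPM). Oligodendrocyte markers were lower for 4 of 7 (201.5 to 314.3 against 321 to 416.7 CPM) and monocyte markers higher for 2 of 5 (53.33 to 175.3 against 53.09 to 74.82 CPM). In culture, astrocyte markers varied within each group, with the lowest library at 37.59 to 64.75 CPM and the highest at 325.9 to 408.2 CPM. Of 5 monocyte markers 3 were higher and 0 lower with the mixture (153.9 to 289.2 against 36.14 to 55.58 CPM in unstimulated cells). The part of these differences in the OXPHOS result was not tested.

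Levels between genes were compared as CPM per kb of gene length. In unstimulated cultured cells the highest level in complex V was that of Atp5a1 (245 ± 15.5 CPM per kb, SD, n = 3), the catalytic alpha subunit, followed by Atp5b, the catalytic beta subunit, at 204. Cox4i1, an early-assembling subunit of complex IV, stood at 378 ± 33.4 and Cox6a1 at 275 CPM per kb. Ndufa2 led complex I at 187 ± 14.2, Uqcr11 led complex III at 114 ± 21.4 and Sdhd, a membrane anchor of complex II, led that complex at 103 ± 4.43. The assembly factors were lower, with a median of 5.26 CPM per kb against 41 for complex I. The same genes led complexes II, III, IV and V in adult MRL/MpJ cells, whereas Ndufc2 led complex I there (112 ± 16.8 CPM per kb). The length column counts all annotated exons, which can lower the value of a gene with long isoforms. Ndufb2 had the lowest value of complex I (0.491 CPM per kb in unstimulated cells), and its level was low before division by length too (3.1, 2.84 and 2.36 CPM).

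Adult microglia of MRL/lpr were compared with those of MRL/MpJ to ask how the respiratory chain genes differ between the diseased strain and its parent. Most OXPHOS genes were lower in MRL/lpr. Of 91 tested, 51 fell and 2 rose (edgeR adjusted p under 0.05 over all genes tested), and 85 of the 91 had a negative log2 fold change. Their median log2 fold change was -0.56, against 0.01 for all 13799 genes tested. The comparison called 45.7% of all genes, 24.1% higher and 21.6% lower, beside 2.2% and 56% of the OXPHOS genes. The 3 libraries of one strain did not overlap those of the other for 48 of the 91 genes (52.7%, beside 55.6% of all genes), and 5 were called with a change of at least 2-fold (5.49%, beside 16.7% of all genes). In such bulk samples, fewer cells of a type and less RNA per cell cannot be told apart.

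**Figure D1:**
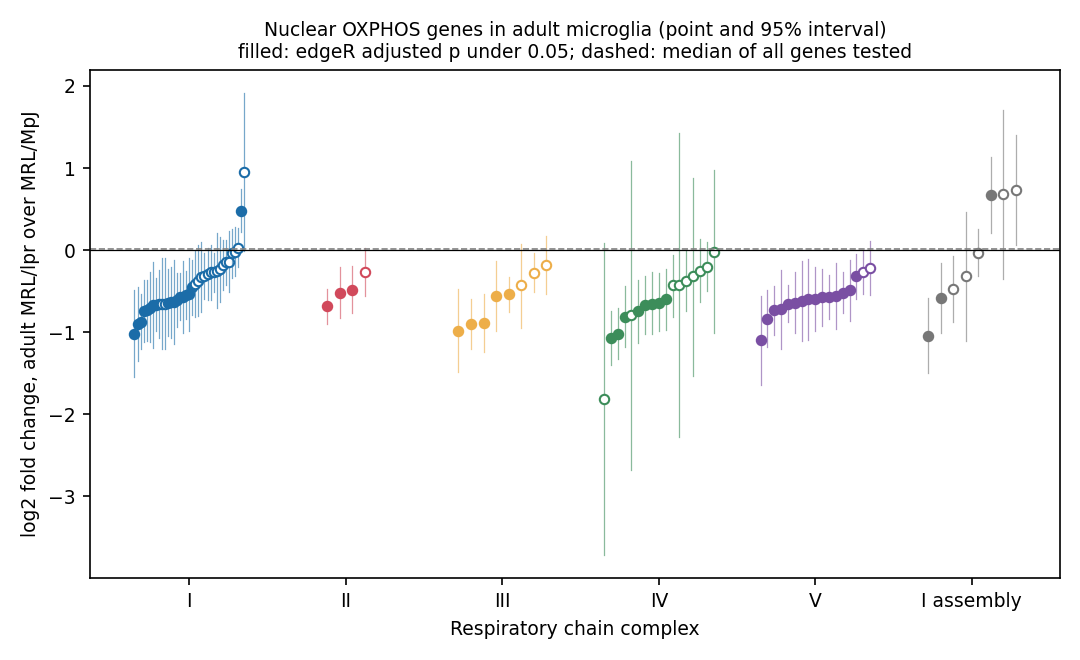
Log2 fold change of adult MRL/lpr over adult MRL/MpJ microglia (vertical axis) for the 91 OXPHOS genes tested, grouped by complex on the horizontal axis. Each point is a gene with its 95% interval, filled where the edgeR adjusted p is under 0.05, and the dashed line is the median of all genes (0.01). Most points lie below 0 in every complex, with 15 of 17 genes of complex V called lower and the assembly factors on both sides.

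In complex I, 18 of 37 genes fell and 1 rose, with a median log2 fold change of -0.54. Ndufa1, a small membrane subunit encoded on the X chromosome, was at 11.7, 18 and 12.1 CPM in MRL/lpr and at 25.5, 39.1 and 20.1 CPM in MRL/MpJ. It was 2.02-fold lower (log2 -1.02 ± 0.245 SE, edgeR adjusted p = 0.00524), and the groups did not overlap. With an offset for gene length Ndufa1 was at log2 -0.41 and not called (adjusted p = 0.0562). Ndufa13 (also known as GRIM-19) was at 27.7, 39.4 and 30 CPM against 59.6, 66.8 and 51.2 CPM, a fall of 1.83-fold (log2 -0.87 ± 0.154, edgeR adjusted p = 0.000733), again without overlap. Ndufa2 (log2 -0.90 ± 0.205, edgeR adjusted p = 0.0037), an accessory subunit of the matrix arm, also fell. These falls were of accessory subunits, which surround the catalytic core.

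The 7 nuclear-encoded core subunits carry the flavin, the iron-sulfur clusters and the quinone site. Of these 7, 2 fell (28.6%, near the 21.6% of all genes called lower), and the median of the 7 was -0.15. Ndufv2 (log2 -0.61 ± 0.151, edgeR adjusted p = 0.006) and Ndufs8 (log2 -0.55 ± 0.133, edgeR adjusted p = 0.00517) were the ones called. With total counts in place of TMM neither was called (adjusted p = 0.0808 for Ndufv2 and 0.0922 for Ndufs8), nor was Ndufs8 with an offset for gene length (0.132). The largest core subunit, Ndufs1, was at 62, 56.9 and 57.4 CPM in MRL/lpr and at 60, 52.6 and 59.9 CPM in MRL/MpJ, so the strains overlapped (log2 0.03, 95% interval -0.21 to 0.27). Total counts called Ndufs1 higher in MRL/lpr (log2 0.29, adjusted p = 0.041). Ndufs7 was at 40.9, 54.8 and 44.4 against 44, 53 and 45.4 CPM. With the length offset its log2 fold change turned from -0.02 to 0.28, which was called higher (adjusted p = 0.0402). No test compared the core with the accessory subunits.

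The called gene of complex I that rose was Ndufab1, the mitochondrial acyl carrier protein, which also serves fatty acid and iron-sulfur cluster synthesis. It was at 38, 41.9 and 41.7 CPM in MRL/lpr and at 28, 29.7 and 29.4 CPM in MRL/MpJ (log2 0.48 ± 0.118, edgeR adjusted p = 0.00582). Its 3 MRL/lpr libraries lay above all 3 of MRL/MpJ. Among the 8 assembly factors, Ndufaf8 fell 2.05-fold (5.88, 6.68 and 5.76 against 14.4, 12.5 and 10.7 CPM, edgeR adjusted p = 0.0018) and Ndufaf1 fell 1.5-fold (edgeR adjusted p = 0.0278). Ndufaf4 rose, at 12.8, 14.4 and 13.1 CPM against 8.07, 6.57 and 10.6 CPM (log2 0.67 ± 0.211, edgeR adjusted p = 0.0213). Of the assembly factors 25% were thus called lower and 12.5% higher, beside 21.6% and 24.1% of all genes. The calls of Ndufaf4 and Ndufaf1 did not hold in several fits with 1 library left out. Ndufaf4 was not called without MRL/lpr replicate 1 (adjusted p = 0.0515) or 3 (0.0546), or without MRL/MpJ replicate 1 (0.0623) or 2 (0.059). Ndufaf1 was not called without MRL/lpr replicate 1 (0.126) or 3 (0.0682), or without MRL/MpJ replicate 1 (0.0572) or 3 (0.104).

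Complex II links the chain to the citric acid cycle, and 3 of its 4 genes fell. Sdha, the flavoprotein subunit that oxidises succinate, was at 131, 145 and 140 CPM in MRL/lpr and at 231, 210 and 228 CPM in MRL/MpJ. The gap between the groups was far wider than the spread within them (1.61-fold lower, log2 -0.68 ± 0.0968, edgeR adjusted p = 0.000159). The membrane anchors Sdhc (log2 -0.52, edgeR adjusted p = 0.0109) and Sdhd (log2 -0.48, 0.0116) fell too, but neither call held without MRL/lpr replicate 1 (0.0602 for Sdhc and 0.061 for Sdhd) or 3 (0.0522 and 0.0579). Sdhb, the iron-sulfur subunit, had a log2 fold change of -0.27 ± 0.135 that was not called, and its groups overlapped.

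In complex III, 5 of 8 genes fell. Uqcrfs1, the Rieske iron-sulfur protein, was at 33.8, 43.5 and 37.8 CPM in MRL/lpr and at 70.5, 82.6 and 62.6 CPM in MRL/MpJ, with no overlap (1.87-fold lower, log2 -0.90 ± 0.138, edgeR adjusted p = 0.000263). Uqcrh, the hinge protein at the cytochrome c1 contact (log2 -0.89 ± 0.164, edgeR adjusted p = 0.000991), and the small subunit Uqcr11 (log2 -0.98 ± 0.232, 0.00499) changed by a similar size. Of the 2 core proteins, Uqcrc1 was at 116, 124 and 111 against 168, 180 and 162 CPM (log2 -0.54 ± 0.0975, edgeR adjusted p = 0.000861). Uqcrc2 had a log2 fold change of -0.28 ± 0.108 and was not called (adjusted p = 0.0534).

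In complex IV, 8 of 17 genes tested fell and none rose. Cox4i1 (chromosome 8, 120668222 to 120674207 of mm10) was at 118, 167 and 115 CPM in MRL/lpr and at 270, 321 and 250 CPM in MRL/MpJ. All MRL/lpr values lay well below all MRL/MpJ values (2.1-fold lower, log2 -1.07 ± 0.151, edgeR adjusted p = 0.000155). Its exons share 154 bases with Emc8 on the opposite strand. Cox7a2l (also known as SCAF1), which tethers complexes III and IV in supercomplexes, was at 41.5, 62.6 and 47.2 against 108, 102 and 95.8 CPM (2.02-fold lower, log2 -1.02 ± 0.144, edgeR adjusted p = 0.000164). Ndufa4 was at 34.4, 45.2 and 30.8 against 68.4, 73.8 and 51.2 CPM (log2 -0.81 ± 0.17, edgeR adjusted p = 0.00225). Cox6a1 (log2 -0.74), Cox6b1 (-0.67), Cox6c (-0.65), Cox8a (-0.64) and Cox5a (-0.60) also fell. The call of Cox5a was lost without MRL/lpr replicate 1 (adjusted p = 0.064) or 3 (0.0612), and that of Cox6c without MRL/lpr replicate 3 (0.0529).

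Complex V had the highest share of called genes, 15 of 17, with a median of -0.59. Atp5e, the epsilon subunit of the central stalk, was at 27.7, 46.3 and 28.9 CPM in MRL/lpr and at 57.1, 98.9 and 64.8 CPM in MRL/MpJ (2.14-fold lower, log2 -1.10 ± 0.242, edgeR adjusted p = 0.00422). Atp5a1 was at 309, 336 and 295 against 523, 488 and 464 CPM (1.57-fold lower, log2 -0.65 ± 0.0988, 0.000261). Both were lower in each MRL/lpr library than in any MRL/MpJ library. Atp5b fell by 0.52 on the log2 scale (edgeR adjusted p = 0.00249), and Atp5h, the d subunit of the peripheral stalk, by 0.84 (0.00114). The 3 genes for subunit c, the proton-carrying ring, were called lower together: Atp5g1 (log2 -0.56, edgeR adjusted p = 0.025), Atp5g2 (-0.73, 0.00102) and Atp5g3 (-0.57, 0.0112). Of these, Atp5g1 was not called without MRL/lpr replicate 1 (0.1) or 3 (0.107) or MRL/MpJ replicate 1 (0.0879) or 2 (0.0887), nor Atp5g3 without MRL/lpr replicate 1 (0.0549) or 3 (0.0517). Atp5j (log2 -0.27) and Atp5md (-0.22) were not called. With total counts in place of TMM, only Atp5a1, Atp5e, Atp5g2 and Atp5h of complex V were called lower. Atp5b (adjusted p = 0.0655), Atp5g1 (0.201) and Atp5g3 (0.134) were among those lost. An offset for gene length left Atp5c1, Atp5k, Atp5mpl and Atp5o not called and kept the other calls of this complex.

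**Figure D2:**
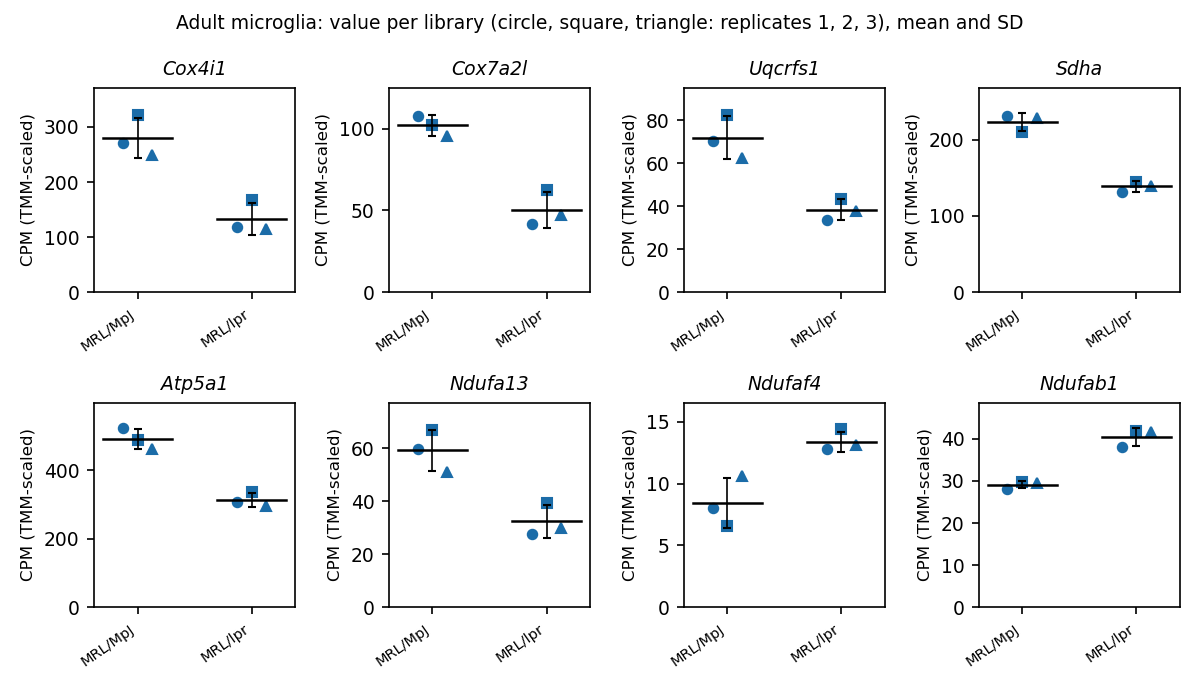
TMM-scaled CPM (vertical axis, from 0) of 8 OXPHOS genes in adult MRL/MpJ and MRL/lpr microglia (horizontal axis). Circles, squares and triangles are replicates 1, 2 and 3, with the mean as a bar and the SD as a line. Cox4i1, Cox7a2l, Uqcrfs1, Sdha, Atp5a1 and Ndufa13 were lower in every MRL/lpr library than in any MRL/MpJ library, and Ndufaf4 and Ndufab1 were higher.

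The size of the adult difference from 0 depended on how the libraries were scaled, although most genes stayed below 0. With total counts in place of TMM, the median of all genes moved to 0.27 and that of the OXPHOS genes to -0.30, with 20 called lower and 5 higher against 10.4% and 34.7% of all genes (45.1% in all). Both medians moved up together, and that of the OXPHOS genes stayed below that of all genes. Gene length also moved with the result. OXPHOS genes are short, with a median of 1587 bases against 4249 for all genes tested. Of those under 1000 bases, 13 of 21 fell (median -0.70), against 19.3% of all genes of that length (median -0.23). Of those of 2000 bases or more, 16 of 33 fell (median -0.37), against 21% (median 0.04). With an offset for length, added after the data were seen, 29 fell and 4 rose, beside 46.6% of all genes called, with a median of -0.20 against 0.05 for all genes. Under all 3 of these settings 16 genes were called lower: Atp5a1, Atp5e, Atp5g2, Atp5h, Cox4i1, Cox7a2l, Ndufa13, Ndufa2, Ndufa4, Ndufaf8, Ndufb8, Sdha, Uqcr11, Uqcrc1, Uqcrfs1 and Uqcrh. Ndufab1 and Ndufaf4 were higher under all 3. Leaving out MRL/lpr replicate 1 or 3 reduced the called OXPHOS genes from 53 to 30 and 29, of which 1 was higher each time, while the share of all genes called went from 45.7% to 33.3% and 33.5%. Leaving out MRL/lpr replicate 2 raised them to 68, with 46.1% of all genes called.

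**Figure D3:**
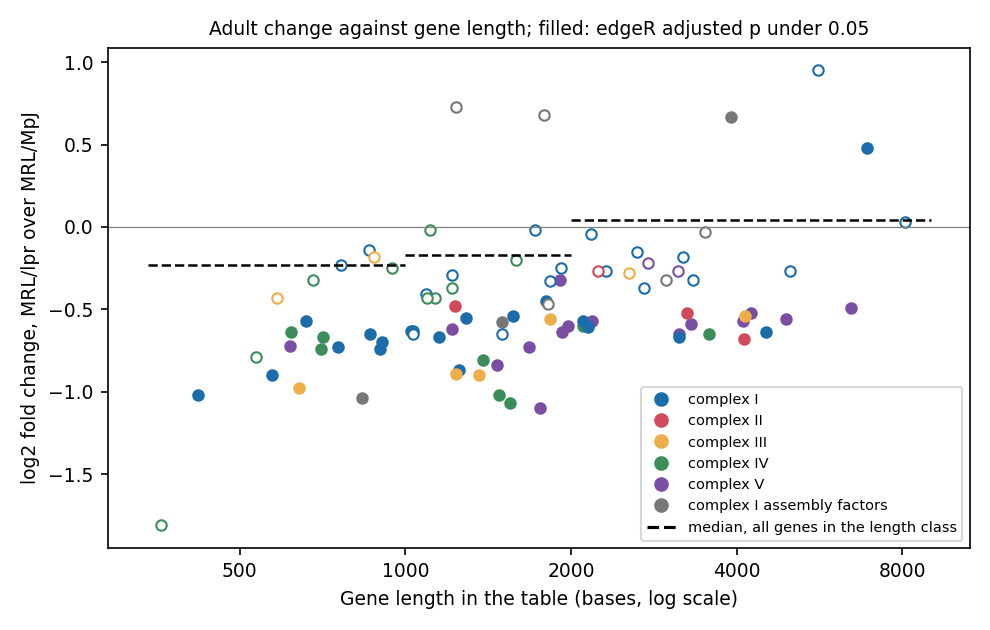
Log2 fold change of adult MRL/lpr over MRL/MpJ (vertical axis) against gene length in bases (horizontal axis, log scale) for the OXPHOS genes, coloured by complex and filled where the edgeR adjusted p is under 0.05. The dashed lines are the medians of all genes tested in the 3 length classes (-0.23, -0.17 and 0.04), and most OXPHOS genes lie below them at each length.

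Other mitochondrial and metabolic genes were set beside these. Of 77 mitochondrial ribosome genes, 22 fell and 5 rose (median -0.25), and of 39 assembly factors of the chain outside the rule, 11 fell and 3 rose (median -0.27). Of 10 electron and nucleotide carriers, 5 fell, among them the ADP/ATP carriers Slc25a4 (log2 -0.58, edgeR adjusted p = 0.00272) and Slc25a5 (-0.64, 0.000772) and the outer membrane channel Vdac3 (-0.64, 0.000581). Cycs, cytochrome c itself, was at 15.1, 18.9 and 16.9 CPM against 20.9, 21.4 and 15.8 CPM and was not called. In the citric acid cycle 6 of 18 genes fell, including Mdh2 (log2 -0.55, edgeR adjusted p = 0.00155), and Idh3b rose (0.60, 0.000853). Of 17 glycolysis genes 12 fell and 3 rose (Pdk1, Pfkp and a second identifier of Aldoa). Those that fell included the glucose transporter Slc2a1 (log2 -0.80, edgeR adjusted p = 0.001), Eno1 (-0.60, 0.000671) and Ldha (-0.58, 0.0019). Of 85 cytosolic ribosomal protein genes 76 fell and 3 rose. Their median was -1 when taken with 8 Rps6k kinase genes that share the symbol pattern. Medians of the other lists were -0.4 for the carriers, -0.22 for the citric acid cycle and -0.45 for glycolysis. Beside these lists, 21.6% of all genes were called lower and 24.1% higher.

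Among 13 regulators of mitochondrial biogenesis 4 rose (30.8%, near the 24.1% of all genes called higher) and 1 fell. Those that rose were the mitochondrial DNA polymerase subunits Polg (log2 0.89, edgeR adjusted p = 0.000179) and Polg2 (1.03, 0.00295), the coactivator Pprc1 (0.67, 0.00489) and the mitochondrial RNA polymerase Polrmt (0.51, 0.0133). Tfam, which packages and transcribes mitochondrial DNA, was at 28.7, 34.7 and 29.4 CPM against 43.2, 45 and 40.9 CPM, with no overlap (log2 -0.48 ± 0.125, edgeR adjusted p = 0.00837). The call of Tfam was lost without MRL/lpr replicate 1 (adjusted p = 0.0557) or 3 (0.0501) and with total counts (0.176). Cox17, a copper chaperone of complex IV assembly, rose most of all named genes of the chain, at 12.3, 8.81 and 11.3 CPM against 0.444, 0.843 and 1.71 CPM (log2 3.40 ± 0.409, edgeR adjusted p = 5.23e-05).

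Promoter sequences were examined for sequences that nuclear respiratory factor 1 (NRF1), a known activator of respiratory chain genes, and other factors recognise. RefSeq (GRCm38.p6) gave windows of 250 bases before to 50 after the start for 77 of the 95 rows, 76 promoter symbols in all. Searched on both strands, the palindromic NRF1 consensus was found for 7 of 76 (9.21%), beside 1.07% of 27025 genes with such windows. AAGATGGCG, recognised by YY1, was found for 10.5% beside 1.64%, and the ETS sequence CCGGAAGT for 6.58% beside 4.31%. The interferon gamma-activated sequence TTCNNNGAA was found for 6.58% beside 9.55%, and the interferon-stimulated response element consensus for 2.63% beside 3.99%. The 27025 genes were not matched to the OXPHOS genes for gene type or for the base composition of their promoters. These are matches of letters and were not tested as binding sites.

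The 250 bases before the start are shown for Atp5g2, Atp5k and Cox6a1, which carry the NRF1 sequence and fell in adult MRL/lpr, for Ndufaf4, which carries it and rose, and for Atp5pb, which rose with the cytokine mixture in culture and holds a TTCNNNGAA match. Capitals mark the matches, which begin 42, 50, 162, 113 and 49 bases before the start. The windows are chr15:102671048-102671297 (minus strand), chr5:108434400-108434649 (minus), chr5:115348959-115349208 (minus), chr4:24897833-24898082 (plus) and chr3:105959264-105959513 (minus) of GRCm38.p6.
Atp5g2: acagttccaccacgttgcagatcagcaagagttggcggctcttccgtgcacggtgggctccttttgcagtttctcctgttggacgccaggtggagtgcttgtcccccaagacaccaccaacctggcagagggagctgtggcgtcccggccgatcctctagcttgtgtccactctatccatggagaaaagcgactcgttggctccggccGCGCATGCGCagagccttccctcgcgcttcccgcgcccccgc
Atp5k: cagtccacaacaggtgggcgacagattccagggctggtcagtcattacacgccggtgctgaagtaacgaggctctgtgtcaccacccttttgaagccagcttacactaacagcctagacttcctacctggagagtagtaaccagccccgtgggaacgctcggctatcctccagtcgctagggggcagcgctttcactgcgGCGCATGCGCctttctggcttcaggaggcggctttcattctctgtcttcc
Cox6a1: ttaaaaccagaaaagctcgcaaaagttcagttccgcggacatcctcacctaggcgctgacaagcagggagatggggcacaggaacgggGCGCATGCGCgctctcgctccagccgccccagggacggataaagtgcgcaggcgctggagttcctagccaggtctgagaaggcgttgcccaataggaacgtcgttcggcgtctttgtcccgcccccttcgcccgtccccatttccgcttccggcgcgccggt
Ndufaf4: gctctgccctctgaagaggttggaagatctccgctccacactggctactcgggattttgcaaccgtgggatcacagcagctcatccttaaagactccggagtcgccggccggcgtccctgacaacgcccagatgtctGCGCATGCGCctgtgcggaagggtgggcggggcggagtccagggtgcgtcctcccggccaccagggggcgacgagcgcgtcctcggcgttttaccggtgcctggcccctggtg
Atp5pb: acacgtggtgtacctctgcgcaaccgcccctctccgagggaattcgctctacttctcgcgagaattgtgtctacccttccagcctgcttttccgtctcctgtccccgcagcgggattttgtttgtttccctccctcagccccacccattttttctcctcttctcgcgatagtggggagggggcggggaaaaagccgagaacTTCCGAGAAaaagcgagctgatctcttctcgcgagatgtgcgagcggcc
The first 4 share their capitals and differ in the direction of the adult change. Atp5k had a log2 fold change of -0.72 (edgeR adjusted p = 0.0179). It was not called without MRL/lpr replicate 1 or 3 (adjusted p = 0.0634 and 0.0849) or without MRL/MpJ replicate 2 (0.0798). Total counts (0.111) and the length offset (0.344) also left Atp5k not called, and the length offset left Cox6a1 not called (0.0535). The NRF1 sequence is also carried by Ndufa11 and Ndufaf5, not called in adults, and by Uqcrc1, called lower.

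In cultured neonatal microglia at most 1 OXPHOS gene was called with any single cytokine by edgeR without pairing of the libraries. The calls of this paragraph come from unpaired fits, and a paired edgeR fit, given below, called more. Of 89 tested, 1 rose and 0 fell with IFNg, which called 12.9% of all 14626 genes, 8.57% higher and 4.32% lower. With IFNa 1 rose and 0 fell, beside 14.5% of all genes, 9.41% higher and 5.07% lower. With TNFa none was called by unpaired edgeR, beside 8.1% of all genes, 4.38% higher and 3.72% lower (2 at an unadjusted p under 0.05, and 1 lower by DESeq2 and 1 lower by limma-voom). With IL-6 none was called by unpaired edgeR, DESeq2 or limma-voom (2 at an unadjusted p under 0.05), beside 0.978% of all genes, 0.745% higher and 0.232% lower. Medians were 0.04 (IFNg), -0.05 (IFNa), -0.09 (TNFa) and -0.02 (IL-6), against -0.02, -0.04, -0.02 and 0 for all genes. For 82 of the 89 genes with IFNg, IFNa and IL-6, and 83 with TNFa, the 95% interval of the change lay within 2-fold either way, as it did for 45.6% to 55.2% of all genes. In simulated data, changes were given to 194 genes drawn at random from all genes. The fit of the cultured cells recovered 6.12% of the 1.5-fold changes with the mixture. Changes of that size could be missed, but this share is not a rate for the OXPHOS genes.

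The mixture called 5 OXPHOS genes, 4 higher and 1 lower, beside 32% of all genes (15.7% higher and 16.4% lower), with a median of 0.12 against -0.05 for all. Against TNFa alone, 6 were higher and 1 lower (25.2% of all genes called, 12.6% in each direction), and against IFNg alone 1 was higher and 1 lower (6.45% and 7.83% of all genes). These comparisons share the mixture libraries. The F test across the 6 groups called 5 genes, Ndufb1-ps, Atp5pb, Uqcrfs1, Ndufaf4 and Ndufaf6, beside 33.1% of all genes.

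Libraries with the same replicate number deviated together in culture, and with the replicate number as a block (a paired edgeR fit) more OXPHOS genes were called. The mixture then called 12 higher and 2 lower, beside 43.2% of all genes. IFNg called 5 higher (23.7% of all genes called), IFNa 4 higher and 1 lower (25.4%), TNFa 2 lower (17.4%) and IL-6 1 lower (4.88%). The mixture against TNFa called 16 higher and 1 lower (37%), and the F test 13 (49.9%). The sign of the median for the mixture depended on the scaling. With total counts the median of all genes moved to -0.47 and that of the OXPHOS genes to -0.30, with 1 called higher and 14 lower, against 10.6% and 34.1% of all genes (44.7% in all). The OXPHOS median lay above that of all genes under either scaling. Total counts moved the median of all genes to -0.21 with IFNg and -0.22 with IFNa.

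**Figure D4:**
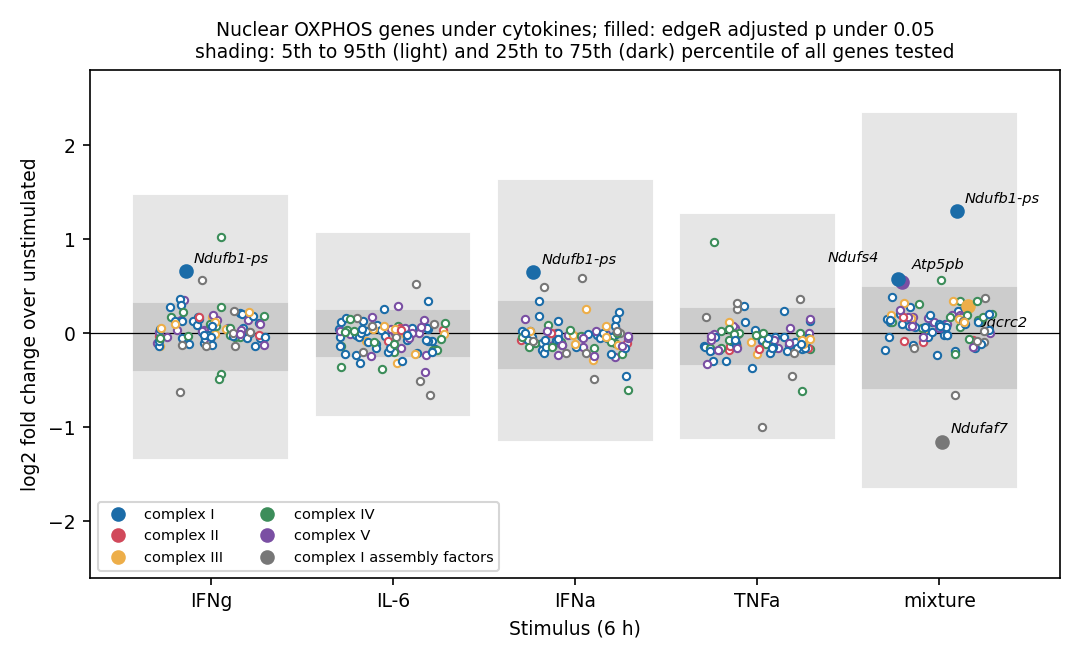
Log2 fold change over unstimulated cells (vertical axis) of the 89 OXPHOS genes tested under each stimulus (horizontal axis). Points are genes coloured by complex, filled and named where the edgeR adjusted p is under 0.05, and the shading spans the 5th to 95th and 25th to 75th percentiles of all genes. Most OXPHOS genes lie close to 0 within the range of all genes, and Ndufb1-ps stands highest of those called with IFNg, IFNa and the mixture.

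Ndufb1-ps was the OXPHOS gene called in most comparisons. It is the mouse locus of the complex I subunit NDUFB1 (chromosome 12, 101968090 to 101977068 of mm10, minus strand). The table types it as protein coding and GENCODE M21 as a bidirectional promoter lncRNA, and 147 of its exon bases overlap Cpsf2 on the opposite strand, so its reads cannot be assigned with certainty. It was at 34.3, 35.9 and 31.4 CPM in unstimulated cells and at 88.7, 86.8 and 74.2 CPM with the mixture. All mixture libraries lay above all others in culture (2.46-fold higher than unstimulated, log2 1.30 ± 0.183, edgeR adjusted p = 4.29e-05). With IFNg it was at 49.5, 67.1 and 44.3 CPM (log2 0.66 ± 0.182, edgeR adjusted p = 0.0229) and with IFNa at 58.1, 59.6 and 41.5 CPM (0.65 ± 0.182, 0.0229). TNFa (42, 43.3 and 34.5 CPM) and IL-6 (32.7, 48 and 41 CPM) gave values that overlapped the unstimulated ones. In adults Ndufb1-ps was lower in MRL/lpr (7.45, 12.1 and 8.58 against 16.7, 17 and 11.1 CPM, log2 -0.67 ± 0.236, edgeR adjusted p = 0.036). That call was lost with total counts (0.183), with the length offset (0.267), with a GC offset (0.0573) and without MRL/lpr replicate 1 (0.148) or 3 (0.115) or MRL/MpJ replicate 1 (0.12) or 2 (0.103).

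The 2 interferon calls of Ndufb1-ps were lost in several fits with 1 library left out. The IFNg call was lost without unstimulated replicate 1 (adjusted p = 0.0632), 2 (0.0523) or 3 (0.0829) or IFNg replicate 2 (0.143), and with total counts (0.155). The IFNa call was lost without unstimulated replicate 1 (0.0614), 2 (0.0529) or 3 (0.0851) or IFNa replicate 1 (0.0877) or 2 (0.109), and with total counts (0.132). With the replicate block the adjusted p was 0.00102 for IFNg and 0.00105 for IFNa. The mixture call held in each of these settings, with log2 fold changes of 0.89 with total counts (adjusted p = 0.0025) and 1.24 to 1.42 with a library left out. The mixture was also above TNFa (log2 1.06 ± 0.182, edgeR adjusted p = 0.000395) and IFNg (0.63 ± 0.181, 0.0269), the second lost with total counts (0.171), in a fit of those groups alone (0.0531) and without IFNg replicate 1 (0.107) or 3 (0.0833).

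Among subunits, Atp5pb, the b subunit of the peripheral stalk of ATP synthase, was at 210, 220 and 211 CPM in unstimulated cells and at 325, 313 and 303 CPM with the mixture. It was 1.47-fold higher without overlap (log2 0.55 ± 0.125, edgeR adjusted p = 0.00258), while total counts gave 0.14 (0.464). IFNg gave 256, 329 and 236 CPM (log2 0.36 ± 0.124), a change not called by edgeR without the replicate block (adjusted p = 0.076) but called with it (0.00674). Exons of Atp5pb share 337 bases with Wdr77 on the opposite strand. Ndufs4, a late-assembling complex I subunit, was at 40.9, 44.2 and 32.8 CPM and with the mixture at 54.2, 69.5 and 52.2 CPM (log2 0.58 ± 0.183, edgeR adjusted p = 0.0226). Its call was lost without mixture replicate 2 (0.0688) or unstimulated replicate 3 (0.104), and its log2 fold change was 0.16 with total counts (0.573). In edgeR with the replicate block Ndufs4 was called (log2 0.57, adjusted p = 0.000351).

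Uqcrc2, a core protein of complex III, was at 103, 111 and 106 CPM in unstimulated cells and at 125, 132 and 135 CPM with the mixture (log2 0.29 ± 0.0935, edgeR adjusted p = 0.025). Total counts turned this to -0.13 (adjusted p = 0.341), and the call was lost without unstimulated replicate 1 (0.0895) or 3 (0.0714). In edgeR with the replicate block Uqcrc2 was called (adjusted p = 0.0049). Against TNFa alone the mixture was also higher for Atp5pb (log2 0.57), Ndufs4 (0.62), Ndufs3 (0.56), Uqcrfs1 (0.53) and Sdhc (0.34). Of these 5, total counts left none called, with Sdhc at 0. Uqcrfs1 was at 88.6, 89.9 and 78.1 CPM with TNFa and at 132, 131 and 109 CPM with the mixture, and Ndufs3 at 55.6, 64 and 65.1 against 84.8, 102 and 85.4 CPM. Neither gene overlapped between the 2 groups. Single libraries nevertheless bore on these calls: the call of Uqcrfs1 was lost without TNFa replicate 3 (adjusted p = 0.0556) that of Ndufs3 without TNFa replicate 1 (0.0656), and that of Ndufs4 without TNFa replicate 1 (0.054) or 3 (0.0689) or mixture replicate 2 (0.0656). The call of Sdhc was lost without TNFa replicate 1 (0.0686), 2 (0.101) or 3 (0.148) or mixture replicate 1 (0.0742) or 2 (0.0582). These fits with a library left out had no replicate block. With the block and all libraries, edgeR called all 5 genes higher against TNFa (adjusted p 4.26e-05 for Atp5pb to 0.00452 for Sdhc).

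Without the block, the genes called lower were the complex I assembly factors Ndufaf7 and Ndufaf4. The replicate block also called subunits lower with single cytokines: Ndufs7 with TNFa (log2 -0.37, adjusted p = 0.00605), Atp5o with IL-6 (-0.41, 0.0263) and Atp5g1 with IFNa (-0.26, 0.0371). Ndufaf7, a mitochondrial protein methyltransferase, was at 12.6, 10.4 and 8.49 CPM in unstimulated cells and at 4.61, 6.63 and 2.92 CPM with the mixture (log2 -1.15 ± 0.331, edgeR adjusted p = 0.013), with 42 to 195 reads per library behind these values. Its call was lost without unstimulated replicate 1 (0.0532) or mixture replicate 3 (0.0805), in fits without the block. The replicate block gave a log2 fold change of -1.2 with the mixture (edgeR adjusted p = 0.000631). With TNFa Ndufaf7 was at 6.85, 5.54 and 3.37 CPM without overlap. This change was not called by edgeR without the replicate block (adjusted p = 0.0801) but was called with it (log2 -1.02, 0.00559). Ndufaf4 was at 7.43, 4.45 and 5.49 CPM with the mixture, against 14.5, 15.5 and 10.6 CPM with IFNg (log2 -1.22 ± 0.31, edgeR adjusted p = 0.0136) and 11.7 ± 0.639 CPM (SD, n = 3) with TNFa (-1.02 ± 0.308, 0.0219). The first call was lost without mixture replicate 2 (0.105) or 3 (0.0745) or IFNg replicate 2 (0.0552), and the second without mixture replicate 2 (0.123) or 3 (0.0863) or TNFa replicate 1 (0.061). With the replicate block the edgeR adjusted p was 0.000627 against IFNg and 0.00133 against TNFa. Against unstimulated cells (9.1 ± 2.69 CPM) the mixture values of Ndufaf4 overlapped and were not called (adjusted p = 0.126), while the replicate block gave a log2 fold change of -0.62 (0.037).

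**Figure D5:**
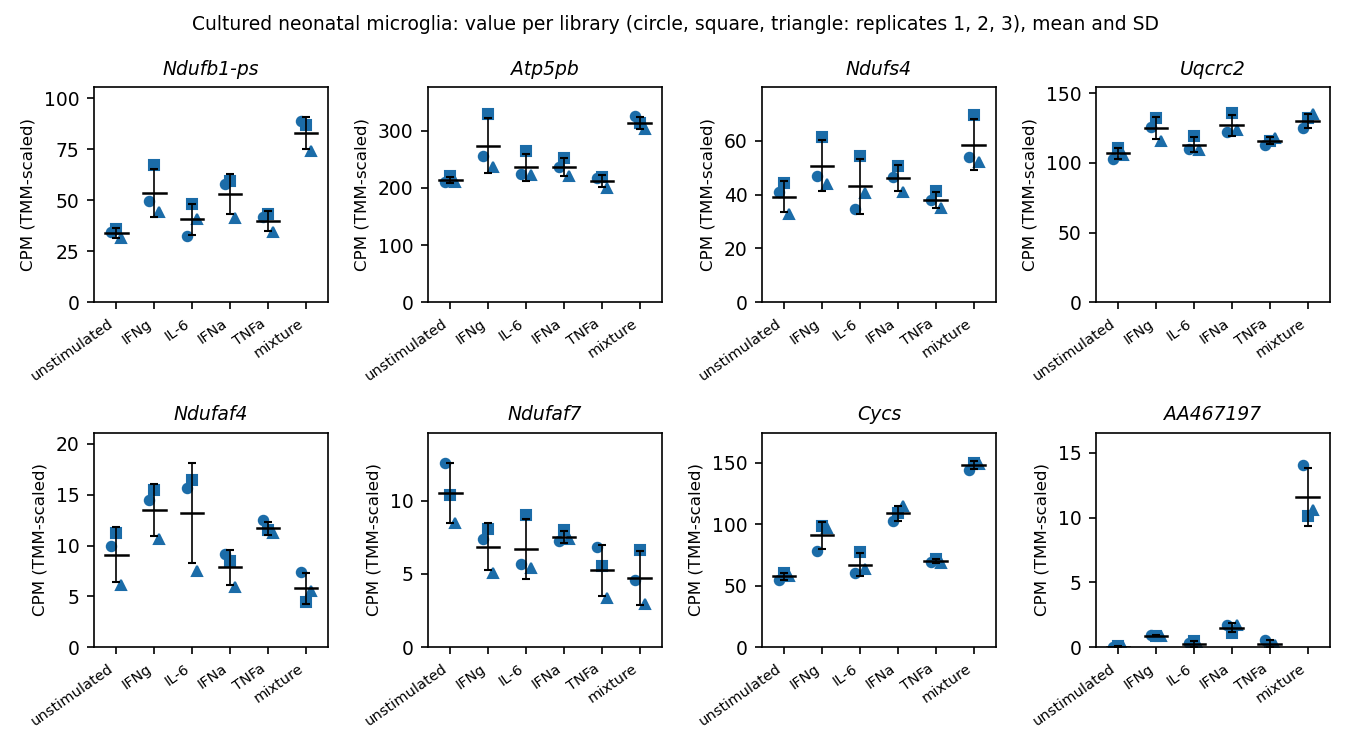
TMM-scaled CPM (vertical axis, from 0) of 8 genes in the 6 cultured groups (horizontal axis). Circles, squares and triangles are replicates 1, 2 and 3, with the mean as a bar and the SD as a line. Ndufb1-ps, Atp5pb and Cycs were higher with the mixture than in unstimulated cells, Ndufaf7 was lower, and AA467197 rose above 10 CPM only in the 3 mixture libraries.

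Several complex IV subunits have a common isoform and a second one found in muscle, lung, testis or under low oxygen. The common isoforms carried almost all reads here. Cox4i1 was at 554, 645 and 557 CPM in unstimulated cells and at 603, 732 and 516 CPM with the mixture, whereas Cox4i2 held 0 to 7 reads per cultured library. Cox6a2, Cox6b2 and Cox7a1 stayed at or below 3.2 CPM in every library of the 8 groups. Cox7b2 had reads in 2 IL-6 libraries only (4 and 8 reads), and Cox8b held 0 to 21 reads per library, with its highest counts in adult MRL/MpJ (21, 20 and 8). None of the 11 genes of these isoform sets that were tested was called with the mixture by edgeR without the block, while the replicate block called Cox7a2 (log2 0.32, adjusted p = 0.0278) and Cox7b (0.29, 0.0398) higher.

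Ndufa4 can be replaced in complex IV by the paralog encoded by AA467197 (also known as Nmes1), an interferon-inducible gene outside the rule. Ndufa4 was at 125, 132 and 91.7 CPM in unstimulated cells and at 139, 139 and 100 CPM with the mixture, and the groups overlapped. AA467197 held 2 reads over the 3 unstimulated libraries, 42 with IFNg, 69 with IFNa, 16 with TNFa, 11 with IL-6 and 480 with the mixture. The mixture was 288-fold above unstimulated cells (95% counting interval 79.2 to 2380) and 12.8-fold above IFNg (9.34 to 18), and its 14.1, 10.1 and 10.6 CPM lay above every other cultured library. Even so, AA467197 remained far below Ndufa4 in the same libraries.

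Genes outside the rule that act on the chain were examined too. With the mixture, 5 of 9 inflammation-linked modulators rose and 0 fell, and of 10 carriers 2 rose (Cycs and Vdac2) and 1 fell (Etfdh), beside 15.7% and 16.4% of all genes. Cycs was at 54.8, 60.1 and 58 CPM in unstimulated cells, at 78.5, 98.3 and 96.6 CPM with IFNg, at 103, 109 and 115 CPM with IFNa and at 144, 150 and 149 CPM with the mixture. It rose with IFNg (log2 0.66 ± 0.116, edgeR adjusted p = 0.001), IFNa (0.92 ± 0.117, 5.81e-05) and the mixture (1.36 ± 0.118, 3.42e-07; 0.94 with total counts), without overlap. Acod1, which makes itaconate, an inhibitor of complex II, went from 1.97 ± 1.33 to 3730 ± 443 CPM (SD, n = 3) with the mixture. Nos2, whose product nitric oxide inhibits complex IV, had 0 reads in unstimulated cells and was at least 2390-fold higher with the mixture (5986 reads; floor of 3 counts over the group). Sod2, the mitochondrial superoxide dismutase, rose with TNFa (log2 3.25 ± 0.176, edgeR adjusted p = 1.13e-08) and the mixture (3.15 ± 0.175, 5.93e-09).

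Assembly and biogenesis genes moved in both directions with the mixture. Of 39 assembly factors outside the rule 5 rose (12.8%) and 11 fell (28.2%), beside 15.7% and 16.4% of all genes. Sco1, a copper chaperone of complex IV, was at 9.23, 13.1 and 11.4 CPM in unstimulated cells and at 99.9, 81.1 and 142 CPM with the mixture (log2 3.26 ± 0.235, edgeR adjusted p = 6.16e-08), with IFNa (2.13 ± 0.226) and IFNg (1.35 ± 0.223) between. Coa6 fell (log2 -1.37 ± 0.205, edgeR adjusted p = 7.19e-05), as did the complex II factor Sdhaf1 (-1.34 ± 0.31, 0.00315). Of 14 biogenesis regulators 2 rose and 4 fell, the latter being the mitochondrial transcription and replication genes Tfb2m (log2 -1.70 ± 0.263, edgeR adjusted p = 0.000105), Polrmt (-1.28 ± 0.203, 0.000132), Twnk (-1.28 ± 0.278, 0.00194) and Polg (-0.58 ± 0.14, 0.00446). Ppargc1b, a coactivator of mitochondrial genes, was at 3.16, 4.95 and 3.09 CPM in unstimulated cells and rose with IFNg to 15.7 ± 0.466 CPM (SD, n = 3; log2 2.07 ± 0.631, edgeR adjusted p = 0.0404). That call was lost without any 1 of the 6 libraries compared (adjusted p 0.077 to 0.136). Its mixture libraries were at 11.6, 1.02 and 13.1 CPM, so replicate 2 stood apart from the other 2. Of 77 mitochondrial ribosome genes 8 rose and 8 fell with the mixture, 10.4% each way and below the shares of all genes.

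The replicate number moved with the OXPHOS genes in culture. In all 6 groups the library numbered 2 lay above its group mean (median over the 89 genes 0.08 to 0.28 on the log2 scale), and the library numbered 3 lay below it (-0.08 to -0.22), with 67 to 84 of the 89 genes below. These shifts are of the size of the cytokine medians above. Over all genes tested, the medians of the libraries numbered 2 and 3 were -0.03 to 0.01. What the number stands for is not given in the labels. Astrocyte markers also varied between the libraries of each cultured group, as given above, and their part in these shifts was not tested.

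Adult and cultured cells of MRL/lpr differ in age and culture together, so these cannot be told apart and were not tested. With 1 scaling over all 24 libraries, 84 of 88 OXPHOS genes with at least 1 CPM were higher in unstimulated neonatal cells than in adult MRL/lpr cells, with a median ratio of 2.93. Over all 12786 such genes 49.5% were higher, with a median ratio of 0.988. The lower summed level of microglia markers in culture, given above, moves with this difference, and its part was not tested. Cox5a had the highest ratio, 5.08, and Cox4i1 stood at 4.91. The 4 genes below 1 were Ndufaf7 (0.352), Ndufaf4 (0.759), Cox6a2 (0.765) and Ndufb2 (0.905).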

How the data were processed

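RNA of CD11b-selected microglia was measured in 24 libraries, 3 in each of 8 groups taken from the sample labels. The deposited values are raw gene counts, as whole numbers per gene in 1 table, per the file headers. Per the submitters' processing notes, the authors used cutadapt 2.1, STAR 2.7.1a and mm10; for the counting program, its annotation and its strand setting no label or header gives a name. All 24 columns were matched to a sample by name.

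Adult (6) and cultured neonatal (18) libraries were fitted separately with edgeR 4.0.16 in R 4.3.3 (filterByExpr, TMM scaling, robust quasi-likelihood test), with Benjamini-Hochberg adjustment over all genes tested and a threshold of 0.05; a call is an adjusted p below it. SE is the log2 fold change divided by the root of F. CPM values are TMM-scaled. Alternatives included DESeq2 1.42.0, limma 3.58.1 (voom), other scalings and filters, each library left out, and the replicate number as a block. Same-numbered cultured libraries deviated together in 45 of 45 pairs (correlations 0.225 to 0.722) and were treated as pairs in the blocked fit; in adults this held for 2 of 3 pairs (0.0751 to 0.198). What the number marks is not given, so the pairing comes from the data.

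No pair of libraries of a group agreed within sampling noise (24 pairs, lowest chi-square per degree of freedom 5.07). On simulated data the adult fit recovered 60.9% of 2-fold changes among 13398 genes, with 9.84% of its 122 calls false, and the fit of the mixture against unstimulated cells 31.2% among 14247, with 5.8% of 69 calls false. Of 1.5-fold changes the adult fit recovered 26.5% and the mixture fit 6.12%. The changed genes were drawn at random from all genes (191 and 194 of them), so these shares are not rates for the OXPHOS genes.

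The OXPHOS genes, the other lists and the naming rule were chosen with earlier results of these data known. The rule named, per comparison, up to 8 called OXPHOS genes each way with the largest change, up to 3 each way from other lists, the complex IV isoforms and a few regulators; other OXPHOS genes named were chosen after their values were seen.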

Additional observations from a re-analysis of the deposited data

How the results depend on the processing

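The number of OXPHOS genes called depended on the processing, and unless stated the cause was not tested. In brackets stand how many of those called were higher and the share of all genes called in the same fit. With the replicate block, calls were 5 for IFNg (5 higher, 23.7%), 1 for IL-6 (0 higher, 4.88%), 5 for IFNa (4 higher, 25.4%), 2 for TNFa (0 higher, 17.4%), 14 for the mixture (12 higher, 43.2%), 17 for the mixture against TNFa (16 higher, 37%) and 13 for the F test (49.9%). In adults, whose numbers are not known to pair the samples, the replicate block gave 67 (2 higher, 50.2%). DESeq2 gave 4 for IFNg (4 higher, 16.4%), 2 for IFNa (2 higher, 17.7%), 1 for TNFa (0 higher, 11.4%), 10 for the mixture (9 higher, 34.5%), 11 for the mixture against TNFa (10 higher, 28.1%) and 12 for the F test (40.7%), and limma-voom 1 for TNFa (0 higher, 8.83%). RLE size factors gave 2 for IFNa (2 higher, 14.8%) and 9 for the F test (33.1%). Total counts gave 25 for adults (5 higher, 45.1%), 0 for IFNg (15.1%), 15 for the mixture (1 higher, 44.7%) and 4 for the mixture against IFNg (0 higher, 24%), and turned Uqcrc2 with the mixture to -0.13 and Sdhc in the mixture against TNFa to 0. Without a filter calls were 3 for the F test (16.7%). A fit of the groups compared alone gave 1 for the mixture against IFNg (0 higher), and 1 fit of all 24 libraries 2 for IFNa (2 higher, 15.6%), 1 for TNFa (0 higher, 9.34%) and 8 for the F test (34.8%).

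Offsets for length and GC content were chosen after seeing the data. The length offset gave 33 for adults (4 higher, 46.6%), 2 for IFNa (2 higher, 16%), 10 for the mixture (9 higher, 32.9%) and 8 for the F test (34.9%), and turned Higd2a to 0.12 and Ndufs7 to 0.28 in adults. The GC offset gave 9 for the mixture (8 higher, 32.6%) and 8 for the F test (34.3%). Length offset and replicate block together gave 3 for IFNg (3 higher, 24.4%), 1 for IL-6 (0 higher, 5.03%), 5 for IFNa (4 higher, 26%), 2 for TNFa (0 higher, 17.9%), 17 for the mixture (15 higher, 43.5%), 5 for the mixture against IFNg (4 higher, 25.8%), 13 for the mixture against TNFa (12 higher, 36.7%) and 16 for the F test (49.9%), with Higd2a at 0.13 and Ndufs7 at 0.28 in adults. GC offset and replicate block together gave 2 for IFNg (2 higher, 24.5%), 1 for IL-6 (0 higher, 5.34%), 5 for IFNa (4 higher, 26.2%), 1 for TNFa (0 higher, 17.7%), 22 for the mixture (20 higher, 43.8%), 5 for the mixture against IFNg (4 higher, 26.4%), 26 for the mixture against TNFa (25 higher, 37.4%) and 19 for the F test (50.4%).

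Leaving out 1 library at a time gave 29 to 68 calls for adults, 0 to 3 for IFNg, 0 to 0 for IL-6, 0 to 1 for IFNa, 0 to 0 for TNFa, 3 to 6 for the mixture, 1 to 2 for the mixture against IFNg, 3 to 8 for the mixture against TNFa and 2 to 9 in the F test. Over 418 values of named genes and 7776 alternatives, 7006 kept their direction and side of the threshold, 661 lost the call, 103 gained it and 6 reversed.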
